A study of Equus caballus with 4 samples.

Results

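NRF2, encoded by *NFE2L2*, is a transcription factor that is bound by the adaptor KEAP1, carried to the CUL3 ubiquitin ligase and degraded. When KEAP1 is modified by electrophiles or oxidants, NRF2 escapes this ligase and raises genes for glutathione synthesis, cystine uptake, thioredoxin reduction, quinone reduction and haem breakdown. CUL3 serves many other adaptors besides KEAP1, several of them abundant in skeletal muscle. The genes described here were 10 of this pathway, *NFE2L2*, *KEAP1*, *CUL3*, *HMOX1*, *NQO1*, *GCLC*, *GCLM*, *TXNRD1*, *SRXN1* and *SLC7A11*, found by the gene name that the array design gives each probe. Of the 10 genes, 9 had a probe and *SRXN1* was not found by name, so that 12 of the 43603 non-control probes were taken. All 12 passed the filter on dim probes, in both channels on all 4 arrays.

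The study treated differentiating equine satellite cells (ESC), the muscle stem cells of the horse, with β-hydroxy-β-methylbutyrate (HMB), a leucine metabolite sold as a supplement for muscle. Cells came from the semitendinosus of 6 colts aged 6 months, had differentiated for 48 h, and were then kept for 24 h with or without HMB, until day 3. The dose was 50 µg in the labels and 50 µM in the methods, and the unit was not settled here. Each of 4 two-colour arrays compared HMB-treated cells (Cy5) with control cells (Cy3), and the dyes were never swapped, so that any dye bias is part of every ratio. The sources do not tie colts to arrays, and p-values therefore measure only the spread between these 4 arrays. Titles and source names give HMB as the treatment, whereas a description field names another, and the titles were followed.

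Values are log2 ratios of HMB-treated over control cells. Probes were tested with limma across 27384 probes, with Benjamini-Hochberg adjustment and a threshold of 0.05, and a gene was represented by its brightest tested probe. Of the tested probes, 22.8% passed in either direction. Among 15614 genes or transcripts, 22.4% passed, with 10.9% higher after HMB and 11.6% lower. Of the 9 measured member genes 1 passed, *CUL3*, which was lower, and 0 were higher. At an unadjusted p under 0.05 there were 4 of 9 genes, against 37.9% of all genes tested, and the methods' t-test gave 1, against 2.63% of all genes. The median log2 ratio of the 9 genes was 0.14, against 0.02 for all genes tested. With normexp and loess these medians were 0.066 and -0.00343, and with no lowess normalisation 0.20 and 0.13. Both settings started from raw signals with normexp background correction (offset 50). The setting without lowess thus differs from the reported one in background correction too. *CUL3* is among the genes that the study picked from these arrays, so its call is not independent evidence.

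**Figure D1:**
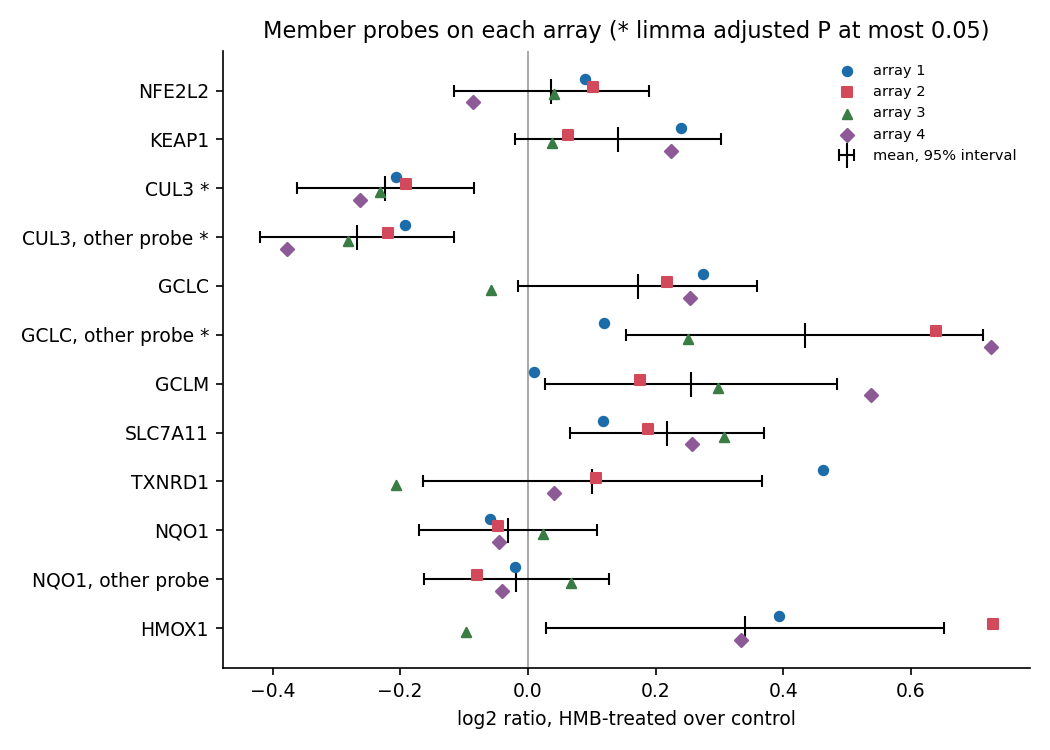
Log2 ratios (horizontal axis) of the 12 member probes on each of the 4 arrays, with the mean and its 95% interval from limma. Both *CUL3* probes lie below 0 on all 4 arrays, and the ratios of *HMOX1* run from -0.10 to 0.73.

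*NFE2L2*, the transcription factor itself, had log2 ratios of 0.09, 0.10, 0.04 and -0.09 on arrays 1 to 4. The sign was positive on 3 of 4 arrays, and the mean of 0.04 ± 0.09 (SD, n = 4) was smaller than the spread. limma gave an adjusted P of 0.704, with a 95% interval of the mean from -0.12 to 0.19. Without lowess the mean was 0.28 (adjusted P = 0.0564) and without array 4 it was 0.078. Over all alternatives the mean ran from 0.015 to 0.28 and the adjusted P from 0.0564 to 0.934. Its probe, printed to show which stretch of the transcript was measured, lay on chromosome 18 of the EquCab1 build, to which all positions here refer, from 44067783 to 44067842, on the minus strand.
NFE2L2: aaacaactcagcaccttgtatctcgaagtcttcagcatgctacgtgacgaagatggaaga

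*KEAP1*, the adaptor that holds NRF2, had log2 ratios of 0.24, 0.06, 0.04 and 0.22. All 4 were positive, with arrays 1 and 4 the higher pair. The mean was 0.14 ± 0.11 (SD, n = 4) and the adjusted P from limma was 0.174. Without lowess the mean was 0.32 and passed the threshold (adjusted P = 0.0409), and over all alternatives the adjusted P ran from 0.0409 to 0.337. Its probe was placed on sequence of no assigned chromosome.

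*CUL3*, the scaffold of the ligase, had log2 ratios of -0.21, -0.19, -0.23 and -0.26 at its brighter probe. The 4 values lay close together and below 0. Control signals of this probe, after lowess, were 9700, 9786, 9968 and 9778 arbitrary units, and HMB signals were 8408, 8572, 8489 and 8145. The mean of -0.22 ± 0.03 (SD, n = 4) was a fold of 0.857, with an adjusted P of 0.0376 from limma and a 95% interval of the log2 ratio from -0.36 to -0.08. The call was lost whichever array was left out, with adjusted P of 0.0630 without array 1, 0.15 without array 2, 0.148 without array 3 and 0.0678 without array 4. Without lowess the ratio turned to 0.13 (adjusted P = 0.389), and over all alternatives the adjusted P ran from 0.0126 to 0.389. In that setting the 1099 genes at least as bright as *CUL3* had a median log2 ratio of 0.48, against -0.04 as reported, a comparison chosen after the values were seen.

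The other *CUL3* probe had log2 ratios of -0.19, -0.22, -0.28 and -0.38, with a mean of -0.27 and an adjusted P of 0.0293 in limma. The 2 probes measure touching stretches of 1 transcript and are no independent measures of it. They meet on chromosome 6, minus strand, the brighter probe from 13179823 to 13179882 and the other from 13179883 to 13179942. The join is printed to show this, with bases of the brighter probe in capitals.
CUL3: tcatctttacagctcCTCGGAAAAATGTGA

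*GCLC* and *GCLM* encode the catalytic and the modifier subunit of the enzyme that starts glutathione synthesis. *GCLC* had log2 ratios of 0.27, 0.22, -0.06 and 0.25 at its brighter probe, array 3 being the only one below 0. The mean was 0.17 ± 0.16 (SD, n = 4) and the adjusted P from limma was 0.156. It was 0.066 with normexp and loess, 0.10 without lowess and 0.30 as the mean of both probes, which passed, with adjusted P over all alternatives from 0.0492 to 0.543. The dimmer *GCLC* probe had ratios of 0.12, 0.64, 0.25 and 0.73, positive on all 4 arrays, with a mean of 0.43 and an adjusted P of 0.0417. The probes of *GCLC* thus differed in their call, and the brighter minus the dimmer was -0.26 ± 0.29 (SD, n = 4) within arrays. This difference was 0.16 on array 1 and -0.42, -0.31 and -0.47 on arrays 2 to 4. The exact sign-flip permutation test gave a two-sided P of 0.25, and 4 arrays allow none under 0.125. A difference between the probes was thus not shown. The dimmer probe gave control signals of only 26.2 to 31.8 units. The 2 probes, shown because their results differed, share no bases and lie 11 bases apart on chromosome 20, the dimmer from 44428199 to 44428258 and the brighter from 44428128 to 44428187, minus strand.
GCLC dimmer: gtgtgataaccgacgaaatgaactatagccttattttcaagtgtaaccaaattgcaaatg
GCLC brighter: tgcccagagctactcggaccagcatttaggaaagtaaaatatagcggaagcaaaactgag

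*GCLM* had log2 ratios of 0.01, 0.18, 0.30 and 0.54. Array 1 lay near 0 and array 4 was the highest. The mean was 0.26 ± 0.22 (SD, n = 4), with an adjusted P of 0.10 from limma. Without array 4 the mean was 0.16 and without lowess 0.41, and it passed under 0 of 15 alternatives. *SLC7A11*, the cystine carrier that feeds glutathione synthesis, had ratios of 0.12, 0.19, 0.31 and 0.26. They were positive on all 4 arrays, and the mean of 0.22 ± 0.08 (SD, n = 4) fell just outside the threshold in limma (adjusted P = 0.0524). It passed under 3 of 15 alternatives, among them without lowess at 0.42, with adjusted P over all of them from 0.0332 to 0.237.

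*TXNRD1*, which reduces thioredoxin, had log2 ratios of 0.46, 0.11, -0.21 and 0.04. Array 1 was the highest, and without it the mean turned from 0.10 to -0.02. It was 0.20 without array 3 and 0.043 with normexp and loess. The SD of 0.28 exceeded the mean, and limma gave an adjusted P of 0.536. *NQO1*, a quinone reductase, had ratios of -0.06, -0.05, 0.02 and -0.05, with a mean of -0.03 and an adjusted P of 0.720. Without lowess the mean was 0.13 (adjusted P = 0.301). Its other probe had a mean of -0.02 (adjusted P = 0.849). The 2 probes are shown because they share 40 bases, in capitals, and so repeat each other. They lie on chromosome 3, minus strand, from 19655705 to 19655764 and from 19655685 to 19655744.
NQO1 first: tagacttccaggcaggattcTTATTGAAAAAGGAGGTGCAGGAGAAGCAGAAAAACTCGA
NQO1 second: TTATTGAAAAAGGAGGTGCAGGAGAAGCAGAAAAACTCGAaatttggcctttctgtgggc

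*HMOX1*, the inducible enzyme of haem breakdown, had log2 ratios of 0.39, 0.73, -0.10 and 0.33. Array 2 was the highest and array 3 the only one below 0. The mean was 0.34, the SD was as large (0.34, n = 4), and limma gave an adjusted P of 0.106. Without array 3 the mean was 0.49 with an adjusted P of 0.0492, and without array 2 it was 0.21 with an adjusted P of 0.320. It was 0.17 with normexp and loess and 0.20 without lowess, and over all alternatives the adjusted P ran from 0.0492 to 0.503. Its signals were low, from 43.8 to 84.2 units in control and from 49.3 to 106 units in HMB-treated cells, and the groups overlapped. The probe, shown because it crosses an intron, is 60 bases long but spans 882 on chromosome 28, from 32851501 to 32852382 on the plus strand.
HMOX1: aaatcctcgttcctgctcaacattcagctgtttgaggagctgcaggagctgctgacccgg

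**Figure D2:**
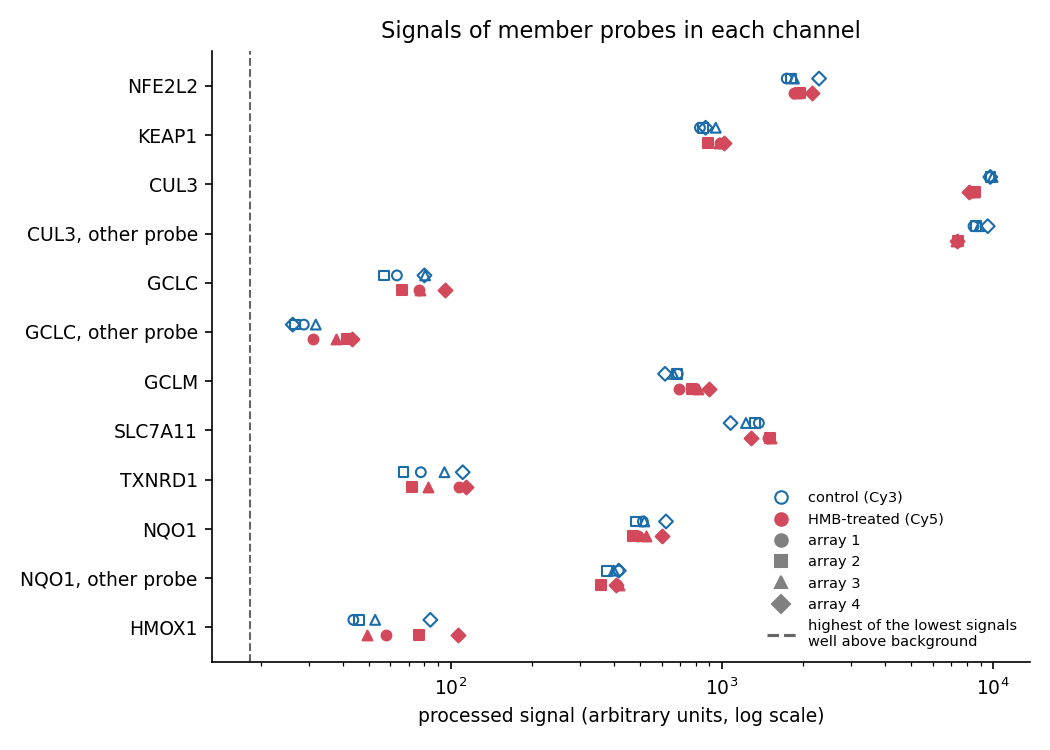
Processed signals (horizontal log axis, arbitrary units) of the 12 member probes in control (open) and HMB-treated cells (filled) on each array. The dashed line is the highest, over arrays and channels, of the lowest signals well above background, 18.1 units, and all signals lie above it.

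From the highest mean ratio to the lowest, the order as reported was *HMOX1*, *GCLM*, *SLC7A11*, *GCLC*, *KEAP1*, *TXNRD1*, *NFE2L2*, *NQO1* and *CUL3*. The order depended on the setting, since *GCLM* lay above *HMOX1* with normexp and loess, without lowess and without array 1 or array 2. Without lowess *CUL3* (0.13) was level with *NQO1* (0.13) and above *GCLC* (0.10) and *TXNRD1* (0.098). Of the 8 pairs of neighbours as reported, 7 differed by less than the SD of their difference within arrays. The exception was *NQO1* over *CUL3*, which differed by 0.19 ± 0.05 (SD) on 4 of 4 arrays (exact sign-flip permutation test, two-sided P = 0.125, the smallest that 4 arrays allow). Of the 6 target genes measured, 5 had a positive mean, against 53.4% of all genes tested, and 0 passed the threshold in limma, with 3 at an unadjusted p under 0.05, against 37.9%. Their median was 0.19, and by array it was 0.20, 0.18, -0.02 and 0.26.

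**Figure D3:**
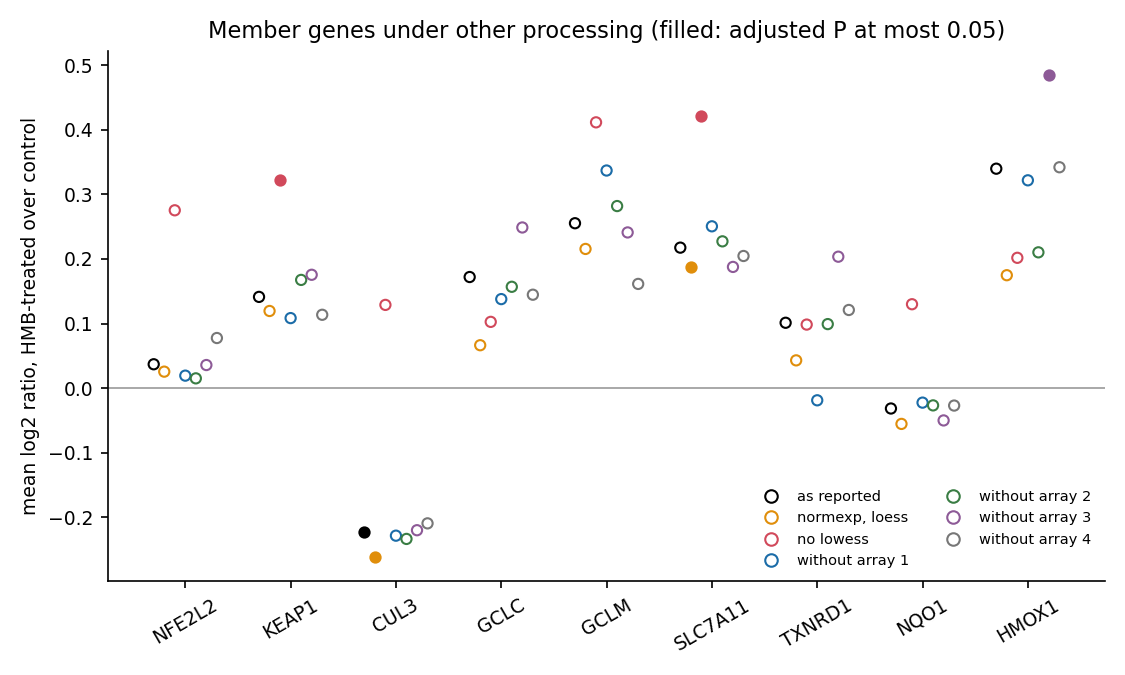
Mean log2 ratios (vertical axis) of the 9 member genes as reported and under 6 other settings, filled where the adjusted P was at most 0.05. *CUL3* is open whichever array is left out and lies above 0 without lowess.

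The 5 genes or transcripts whose 4 ratios were most like those of *CUL3* were ENSECAT00000006430, *ZNF629*, *NUDT6*, DN508577 and ENSECAT00000026942. Their root mean square differences from *CUL3* over 4 arrays were 0.00879, 0.0159, 0.0177, 0.0223 and 0.0249.

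Partners of the members were read from 10 fixed lists, of which 122 of 169 genes were tested and 30 passed. This was 24.6%, near the 22.4% of all genes that passed. Without lowess 24.7% of all genes passed, 18.9% higher and 5.76% lower, against which the counts in that setting are to be read. In it 18 of the 30 passed with the same sign, and the medians of all 8 lists with a negative median turned positive, where the median of all genes was 0.13. Leaving out array 2 gave 7 and leaving out array 3 gave 9, and by the methods' t-test 2 passed. Of the 30, 6 passed whichever array was left out, *KLHL13*, *KLHL24*, *KLHL31*, *KLHL40*, *KLHL41* and *BLVRB*, and each of the rest was lost without at least 1 array. Of these 6, 5 also passed without lowess. The median of NRF2's partners and competitors was -0.14 (0.074 without lowess, -0.22 without array 1 and -0.072 without array 2). Of these 7 genes, 0 were higher and 1 was lower. This was *MAFG*, a small MAF protein that pairs with NRF2 on DNA, with ratios of -0.10, -0.37, -0.27 and -0.26 (mean -0.25, adjusted P = 0.0431). Its adjusted P was 0.201 without array 2 (mean -0.21), 0.155 without array 3 (mean -0.24) and 0.0816 without array 4 (mean -0.25). Without lowess its mean of -0.11 did not pass. *NFE2L1* (-0.22, adjusted P = 0.106) and *SQSTM1* (-0.15, adjusted P = 0.246) did not pass. No probe was found for *MAFF*, *MAFK* or *BACH1*, and *BACH2* was not well above background.

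Of the CUL3 ligase core and cycle, 1 of 8 genes passed, against 22.4% of all genes, with a median of -0.06. Without lowess 3 passed, against 24.7% of all genes, with a median of 0.31. *NAE1*, a subunit of the enzyme that starts NEDD8 conjugation, had ratios of 0.26, 0.36, 0.33 and 0.45 (adjusted P = 0.0132). The adjusted P became 0.0705 without array 2 (mean 0.35) and 0.0590 without array 3 (mean 0.36). Without lowess the mean was 0.59. *RBX1*, the RING subunit, had a mean of 0.01, but without lowess it was 0.55 and past the threshold. Of the other cullins, 0 of 7 passed in limma (median -0.01, and 0.074 without lowess), and leaving out array 1 gave 1.

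Of 25 tested adaptors of CUL3, 3 were higher and 6 lower, against 10.9% and 11.6% of all genes. The median was -0.08 and turned to 0.10 without lowess, where 1 was higher and 4 were lower. Leaving out array 2 or array 3 gave 5 in each case, and by the methods' t-test 1 passed. The largest fall was in *KLHL41*, with ratios of -0.54, -0.70, -0.95 and -1.29 (mean -0.87, adjusted P = 0.00713). *KLHL31* (-0.65, adjusted P = 0.00346), *KLHL40* (-0.60, adjusted P = 0.00696) and *KLHL13* (-0.58, adjusted P = 0.0125) were also lower on 4 of 4 arrays, each past the threshold in limma. Without lowess *KLHL41* was at -0.49 and *KLHL31* at -0.42. *KLHL31*, *KLHL40* and *KLHL41* are known from skeletal muscle. All 11 tested markers of skeletal muscle cells were lower as well and passed in limma, against 11.6% of all genes. Their median was -0.98, and medians by array were -0.44, -0.88, -1.08 and -1.31. The count that passed was 10 without array 1 and 6 without any of the others, and by the methods' t-test 0 passed. *MYF5*, among the 11, is also a gene that the study picked from these arrays, so its call is not independent evidence. Without lowess all 11 were still below 0, with a median of -0.43, and 7 passed. Their part in the adaptors' fall was not tested, and in these bulk samples fewer muscle cells cannot be told apart from less RNA per cell.

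The summed control signal of the muscle markers was 204853, 206997, 220372 and 234929 units on arrays 1 to 4, and the HMB signal was 149150, 103959, 95445 and 87269, with *MYH3* the brightest. Of the fibroblast markers, 2 of 8 were higher and 0 lower, against 10.9% and 11.6% of all genes. The higher ones were *PDGFRA* (1.53, adjusted P = 0.00358) and *FAP* (0.42, adjusted P = 0.0185). The median of the 8 was -0.0033, and *COL1A2* was the brightest. *FAP* did not pass without array 1, array 2 or array 3, and by the methods' t-test 0 of the 8 passed. Without lowess all 8 were above 0 with a median of 0.82, 6 passed, against 24.7% of all genes in that setting, and *COL1A2* turned from -0.20 to 1.02 and *COL3A1* from -0.21 to 0.91. *PDGFRA* (0.93) and *FAP* (0.72) were higher in that setting too. Summed control signals were 326671, 306206, 337506 and 429540 units, and HMB signals 393106, 284653, 308386 and 309310. Of the macrophage and leukocyte markers, 3 were tested, with a median of 0.02, and 1 passed. This was *MSR1* (adjusted P = 0.00391), on the lowess-normalised signals at least 1.87-fold higher, a bound that holds for that normalisation only. Its control was not well above background on any array, so that it entered the test only through the HMB channel, where it is high. Without lowess its log2 ratio was 0.63 and did not pass, but against such a control this is no exact value. In that setting *CD14* passed at 0.30. *CD68* (-0.29, adjusted P = 0.120) and *CD14* (0.02, adjusted P = 0.868), the brightest of the 3, did not pass as reported. Of the erythroid markers 1 of 2 passed, *AHSP* (0.58, adjusted P = 0.00937), which was at 0.21 without lowess and did not pass, and no endothelial marker was well above background. The methods describe a preplating step, meant to keep fibroblasts few. The part of all these cell types in the members' ratios was not tested.

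**Figure D4:**
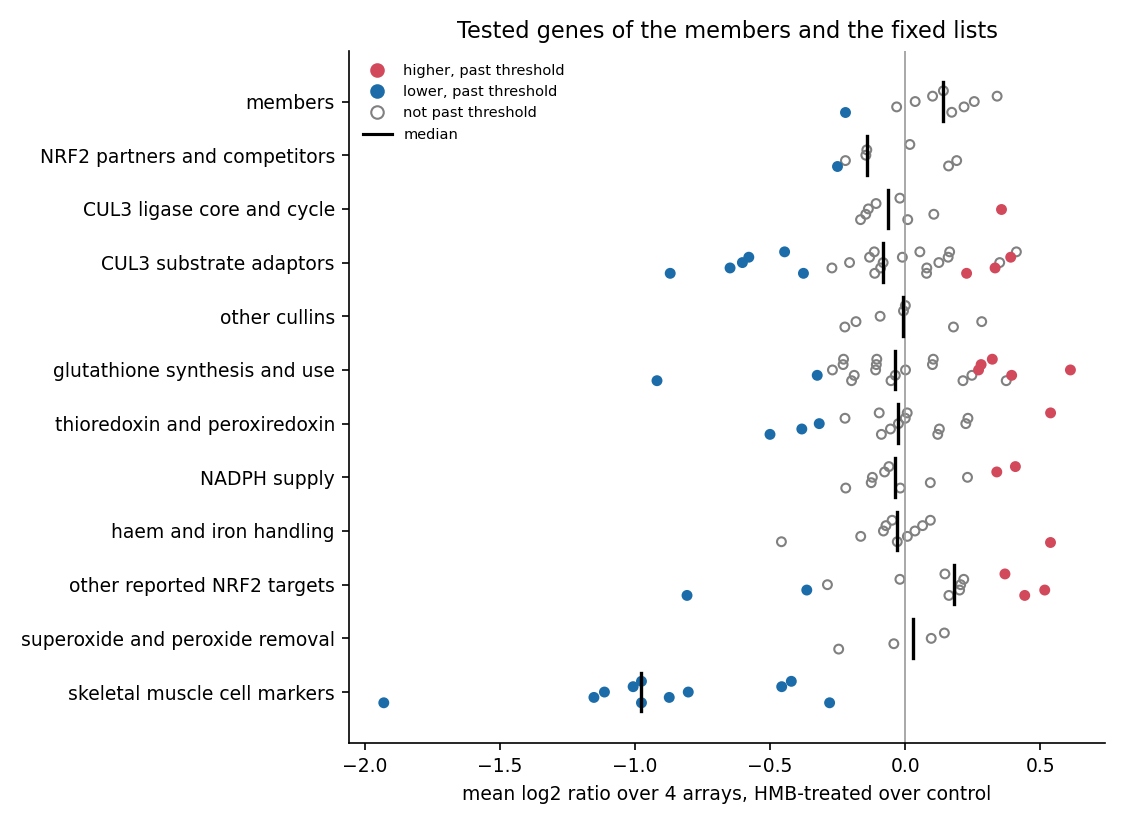
Mean log2 ratios over 4 arrays (horizontal axis) of the tested genes in the members, the 10 fixed lists and the skeletal muscle markers, with the median of each as a bar. All 11 muscle markers lie below 0, and the members' median is 0.14. Without lowess the 8 negative medians of the fixed lists turn positive.

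Around the *GCLC*, *GCLM* and *SLC7A11* products, 5 of 23 genes of glutathione synthesis and use were higher and 2 lower (median -0.04). This was 30.4%, against 22.4% of all genes. Without lowess 11 were higher and 1 lower, against 18.9% and 5.76% of all genes, with a median of 0.29. *GGCT* (0.61, adjusted P = 0.0233), which the study also listed, and *GSTK1* (0.39, adjusted P = 0.0232) were higher, and *GPX3* (-0.92, adjusted P = 0.0239) and *MGST2* (-0.33, adjusted P = 0.0163) lower. The count of 7 became 5 without array 1, 1 without array 2, 0 without array 3 and 3 without array 4. Around *TXNRD1*, 1 of 15 thioredoxin and peroxiredoxin genes was higher and 3 were lower (median -0.03, and 0.20 without lowess). This was 26.7%, near the 22.4% of all genes, and the count of 4 became 0 without array 2, 0 without array 3 and 2 without array 4. *SESN2* was higher (0.54, adjusted P = 0.0284), and *MSRB1* (-0.50, adjusted P = 0.0463), *SESN1* (-0.38, adjusted P = 0.0420) and *PRDX2* (-0.32, adjusted P = 0.0241) were lower. Without lowess *MGST2* turned to 0.094 and *PRDX2* to 0.00375, and *SESN2* (0.15), *MSRB1* (-0.21) and *SESN1* (-0.24) did not pass. In that setting 0 of the 4 thioredoxin and peroxiredoxin calls was kept, and 4 other genes of the list passed, all higher. *GPX3* was at -0.57.

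Of 10 genes of NADPH supply, which serves both systems, 2 were higher and 0 lower, against 10.9% and 11.6% of all genes. Among the higher genes was *TKT* (0.34, adjusted P = 0.0147). The median was -0.04, with 0 passing without array 2 and 1 without array 3. Without lowess 4 were higher, against 18.9% of all genes, with a median of 0.29, and *TKT* was at 0.65. *PGD*, named after its values were seen, did not pass at its brightest probe in limma (0.23, adjusted P = 0.0912). Of its 6 tested probes 5 passed, with means of all 6 from 0.23 to 0.44, and without lowess its brightest probe passed at 0.54. Around *HMOX1*, 1 of 11 genes of haem and iron handling was higher, near the 10.9% of all genes (median -0.03). Without lowess 3 were higher (median 0.20), against 18.9% of all genes. The gene higher as reported was *BLVRB*, a biliverdin reductase, with ratios of 0.34, 0.62, 0.65 and 0.53 (mean 0.54, adjusted P = 0.00661, and 0.86 without lowess). *BLVRA*, the other biliverdin reductase of the list, named after its values were seen, did not pass in limma (0.09, adjusted P = 0.367). Of 12 other reported NRF2 targets, 3 were higher and 2 lower, against 10.9% and 11.6% of all genes. The median was 0.18 (0.29 without lowess), and the count of 5 became 0 without array 2, 2 without array 3 and 3 without array 4. *UGDH* (0.52, adjusted P = 0.0119), *RXRA* (0.44, adjusted P = 0.0253) and *PIR* (0.37, adjusted P = 0.0208) were higher, and *EPHX1* (-0.81, adjusted P = 0.0156) lower. *AKR1B1*, named after its values were seen, was the other lower gene (-0.36, adjusted P = 0.0115), and its call was lost without array 2. Without lowess *AKR1B1* turned to 0.059, and *RXRA* had a mean of 0.17 and did not pass. For *PIR*, only 1 of 3 tested probes passed, with means from 0.31 to 0.37. Of 4 genes that remove superoxide and peroxide, 0 passed in limma by their brightest probes and 1 in the methods' t-test (median 0.03), and without lowess 2 were higher (median 0.32). This was *SOD2*, which the study also listed, with a mean of 0.14 and an adjusted P of 0.115 from limma at its brightest probe. Of its 10 tested probes 6 passed, with means of all 10 from 0.14 to 0.36.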

How the data were processed

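RNA of HMB-treated (Cy5) and control ESC (Cy3), of RIN at least 9.2 per the methods, was hybridised on 4 Agilent arrays of 1 slide, scanned together, so that no slide or scan batch divides them. The authors deposited Feature Extraction output (version 10.10.1.1 per the file headers) with processed signal intensity after background subtraction and lowess dye normalisation, the log10 ratio of Cy5 over Cy3, and other marks such as well above background. The deposited series value table holds the same log10 ratio values, with a largest difference of 0, and medians on the log2 scale of 0.01, 0.01, 0.03 and 0.02 over tested probes. Array number limits the precision.

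Here log10 ratios were multiplied by log2 of 10, control spots and spots marked as outliers were left out, and replicate spots were averaged per probe. Testing required a signal well above background on all 4 arrays in either channel, and at least 3 values. The test was limma 3.58.1 (R 4.3.3), intercept only, two-sided, the adjustment that of Benjamini and Hochberg over the whole tested table and the threshold 0.05; the step was tested on simulated data. Tables were made with Python 3.11.15 and pandas 2.3.3. A gene is represented by its brightest tested probe. The methods' t-test is named in the study's supplementary workbook and not in its methods section.

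Named genes were all members with every probe, from each list at most 4 genes past the threshold with 1 sign on all arrays, the small MAF and BACH genes, *RBX1*, *SQSTM1* and *NFE2L1*, and the 5 genes most like *CUL3*. A gene that this rule names is not reported here. Members and lists were chosen with earlier results of these data known. List genes were found by name, and 3 by RefSeq accession (its telomere-to-telomere thoroughbred assembly). Positions are those in the array files, on EquCab1 per the file headers. Promoter motifs were not analysed here. Alternatives were normexp (offset 50) with loess, median centring of the same normexp-corrected signals with no lowess, the methods' t-test, a trend with a robust prior, no replicate block, no filter, a stricter filter on both channels, outlier spots retained, values from the series table, a minimum of 1.3-fold, the mean of a gene's tested probes, and each array left out. Lower bounds used processed signals after Aquantile scaling and are open to dye bias.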

Additional observations from a re-analysis of the deposited data

Results flagged for a closer look

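Of 36 probes examined, 12 of members and the rest of other named genes, 1 had an array far from the others, and chance alone marks about 1 in 20. The brighter *NQO1* probe had a log2 ratio of 0.02 on array 3, whereas the other arrays lay between -0.06 and -0.05, a gap of 0.835 of the whole range. Its whole range was small, and the result was not past the threshold.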

How the results depend on the processing

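Values for both channels above background, marked spots kept and the series value table gave no change of call or direction in the members, the 10 fixed lists and their named genes. Cell type markers were not compared under these 3 settings. With the methods' t-test, 768 probes passed in all and 2 list genes: 1 adaptor, 1 gene of superoxide and peroxide removal, and 0 in NRF2 partners, ligase core, glutathione, thioredoxin, NADPH supply, haem and iron, and other targets. With no replicate block, that is with the pairing of channels ignored, 2226 probes, 0 members (*CUL3* -0.22, adjusted P = 0.0782) and 13 list genes passed: 0 NRF2 partners, 1 of the ligase core, 5 adaptors, 2 glutathione, 1 thioredoxin, 1 NADPH, 1 haem and 2 other target genes. With no filter on dim probes, 3690 probes and 10 list genes passed: 0 NRF2 partners, 1 of the ligase core, 3 adaptors, 1 glutathione, 0 thioredoxin, 1 NADPH, 2 haem, 1 other target and 1 superoxide gene. With a minimum of 1.3-fold, 3863 probes, 0 members (*CUL3* -0.22) and 17 list genes passed: 0 NRF2 partners, 0 of the ligase core, 6 adaptors, 3 glutathione, 3 thioredoxin, 1 NADPH, 1 haem and 3 other target genes. The cause of these differences was not tested.

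With no lowess normalisation the median of all tested probes moved from 0.02 to 0.15, and calls from 3071 higher and 3186 lower to 5703 higher and 1585 lower. This setting also used normexp background correction, so it differs from the reported one in more than lowess. In that setting 2 members passed, *KEAP1* (0.32) and *SLC7A11* (0.42). Ratios turned to 0.13 for *CUL3*, 0.13 for *NQO1*, 0.094 for *MGST2*, 0.00375 for *PRDX2* and 0.043 for *SQSTM1*. Counts became 0 for NRF2 partners, 3 for the ligase core, 5 for adaptors, 12 for glutathione, 4 for NADPH supply, 3 for haem and 2 for superoxide. Medians became 0.074 for NRF2 partners, 0.31 for the ligase core, 0.10 for adaptors, 0.29 for glutathione, 0.20 for thioredoxin, 0.29 for NADPH, 0.20 for haem, 0.29 for other targets and 0.32 for superoxide. With normexp and loess, 2 members passed, with *SLC7A11* at 0.19, and so did 2 haem genes; *RBX1* turned to -0.00445, and medians were -0.10 for the ligase core and 0.11 for other targets. A trend with a robust prior gave 2 members, with *SLC7A11* at 0.22. The mean of a gene's probes gave 2 members, with *GCLC* at 0.30, and 1 superoxide gene; it has no value for the count over probes.

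Leaving out each array in turn gave 2573 to 4957 probes (2573 without array 2 and 2705 without array 3), 0 to 1 members, and 7 to 27 list genes. The 1 member without array 3 was *HMOX1*, not *CUL3*. *CUL3* ran from -0.23 to -0.21, *HMOX1* from 0.21 to 0.49, *TXNRD1* from -0.019 to 0.20 (-0.019 without array 1) and *RBX1* from -0.047 to 0.052 (-0.047 without array 4). Counts ran from 0 to 1 for NRF2 partners, 0 to 1 for the ligase core, 5 to 8 for adaptors, 0 to 1 for other cullins, 0 to 5 for glutathione, 0 to 3 for thioredoxin, 0 to 2 for NADPH and 0 to 5 for other targets. Medians ran from -0.11 to -0.00281 for adaptors, from -0.080 to 0.076 for glutathione and from 0.14 to 0.18 for other targets. They ran from -0.22 to -0.072 for NRF2 partners and from -0.077 to -0.044 for the ligase core. Both signs occurred for thioredoxin (-0.062 to 0.017), NADPH (-0.072 to 0.031) and haem (-0.073 to 0.037). The same held for other cullins (-0.092 to 0.013) and superoxide (-0.00874 to 0.067). *GCLC*, *TXNRD1* and *HMOX1* had the dimmest signals, nearest to background.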
